A study of Mus musculus with 8 samples.

Results

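The 9 core genes of the Hedgehog pathway followed here are Smo, Ptch1, Gli1, Gli2, Gli3, Sufu, Hhip, Cdon and Gpr161. The data are RNA sequencing of mouse cultures labelled as primary renal fibroblasts. The 9 genes were taken by gene symbol from a table of 22322 genes, and each symbol matched 1 row. The study holds 8 libraries in 2 groups, and both were kept for 48 hours with TGF-β (5 ng/ml), a profibrotic cytokine. The 4 Ad-GFP libraries come from cells infected with an adenovirus carrying green fluorescent protein and are labelled wild type. The 4 Ad-Cre libraries come from cells infected with an adenovirus carrying Cre recombinase and are labelled as a knockdown of Suv39h1, a histone H3 lysine 9 methyltransferase. The labels used here state no strain, age or targeted allele, and not whether replicates are separate cultures or animals. The p-values therefore measure only the spread between these libraries, which may be technical. The groups differ in both the transgene and Suv39h1, so effects of Cre itself and of Suv39h1 depletion cannot be told apart.

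Hedgehog ligands (Shh, Ihh and Dhh) bind the receptor Patched, which otherwise holds the transmembrane protein Smoothened inactive. Active Smoothened accumulates in the primary cilium and frees the GLI transcription factors from their binding partner SUFU and from processing into repressors. GLI2 is the main activator, GLI3 acts mostly as a repressor, and Gli1, Ptch1 and Hhip are themselves classical target genes whose transcripts serve as a readout of the pathway. In the kidney, Gli1 marks perivascular mesenchymal cells that contribute to myofibroblasts after injury.

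In these cultures the receptor genes and Smo were well measured, whereas the target genes Gli1 and Hhip were near the limit of detection. Smo, Ptch1, Cdon and Gpr161 rose in Ad-Cre to 118.5% to 121.7% of their Ad-GFP level, Sufu was at 99.4%, and Gli3 fell to 88.4%. Gli1 had at most 3 reads in any library. Hhip, at 10 to 16 reads per Ad-GFP library, had 0 to 3 reads per Ad-Cre library. The filter on low counts left 7 of the 9 genes for testing, and 6 of those passed edgeR's quasi-likelihood test at an adjusted p below 0.05, 4 higher and 2 lower in Ad-Cre. Over all 13337 genes tested, 40.3% passed, 19.8% higher and 20.5% lower, so a small change in this comparison is common. Hhip entered the test only through the Ad-GFP libraries, where it is higher, and its place in that count is no support. With a filter of at least 5 CPM, 5 of 6 core genes passed, beside 4584 of all 10693 genes kept. Of the 7 tested, 4 were higher in every Ad-Cre library than in any Ad-GFP library and 1 (Hhip) was lower. Of all genes tested, 35.4% had such separate groups, 17.2% higher and 18.2% lower. The place of Hhip in this count is no support either, for the same reason.

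Library totals ran from 15879244 to 17930632 counts in Ad-GFP and from 18006938 to 23940043 in Ad-Cre. Suv39h1 was at 27.8 to 29.6 CPM (counts scaled to the library total) in Ad-GFP and 21.6 to 25.3 in Ad-Cre, 79.6% of the Ad-GFP level. Most reads of the gene thus remained, but counts per gene do not show whether they come from intact transcripts. The fibroblast label was only partly borne out by markers: Vim and Col1a1 were abundant, but Dpt, Lum and Fap each had at most 19 reads in a library. Among epithelial markers, the keratin gene Krt8 stood at 1504 CPM and Cldn4 at 1141 CPM in Ad-GFP. There the 10 epithelial markers summed to 5753 CPM, against 753.3 CPM for the 12 fibroblast markers. Several marker lists moved with the groups. Of 9 tested fibroblast markers 5 fell and 0 rose, and their sum was 732.9 to 780.5 CPM in Ad-GFP and 469 to 544 in Ad-Cre. Endothelial markers (11 of 12 lower, 0 higher) summed to 158 to 164 CPM against 79.6 to 90.9, and macrophage and leukocyte markers (9 of 12 lower, 0 higher) to 276 to 316 against 240 to 250. Of 6 mural cell markers 4 fell and 0 rose (266 to 280 against 232 to 245 CPM), and of 10 proliferation markers 9 fell and 0 rose (212 to 225 against 144 to 152 CPM). Among proximal tubule markers, 4 of the 5 tested rose and 0 fell (114 to 129 against 162 to 186 CPM), while Slc34a1 and Slc5a2 had at most 2 reads in a library. Of 10 epithelial markers 4 rose and 5 fell (5638 to 5855 against 5189 to 5273 CPM). The part of these shifts in the Hedgehog results was not tested, and in bulk samples fewer cells of a type and less RNA per cell cannot be told apart.

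Levels between genes were compared on the deposited FPKM scale, which divides by gene length. In Ad-GFP, Smo was the most abundant of the 9 at 22.3 ± 0.3 FPKM (SD, n = 4). Sufu (8.65 ± 0.37 FPKM) and Ptch1 (7.86 ± 0.57 FPKM) followed, and their libraries overlapped. Cdon (6.79 ± 0.77 FPKM) and Gli3 (5.25 ± 0.74 FPKM) also overlapped each other, and Gpr161 lay below them at 3.49 ± 0.08 FPKM. The other 3 genes formed a separate low tier, with Gli2 at 0.115 ± 0.068, Hhip at 0.08 ± 0.022 and Gli1 at 0.015 ± 0.017 FPKM. In Ad-Cre the order of the upper tier was Smo, Ptch1, Sufu, Cdon, Gli3 and Gpr161, and Ptch1, Sufu and Cdon ran into one another (9.60 ± 0.75, 8.47 ± 0.43 and 8.01 ± 0.43 FPKM), as did Gli3 and Gpr161 (4.40 ± 0.49 and 4.25 ± 0.38 FPKM). Among the GLI factors, Gli1 and Gli2 stayed at or below 0.19 FPKM in every library, whereas Gli3 never fell under 3.87 FPKM. The deposited FPKM rests on a gene length that differed between libraries. For Cdon the length implied by count and FPKM ranged from 5470 to 7439 bases and for Ptch1 from 4964 to 5932 bases, whereas for Smo it stayed between 3778 and 3780 bases. Changes between the groups are therefore given on the CPM scale, from counts.

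**Figure D1:**
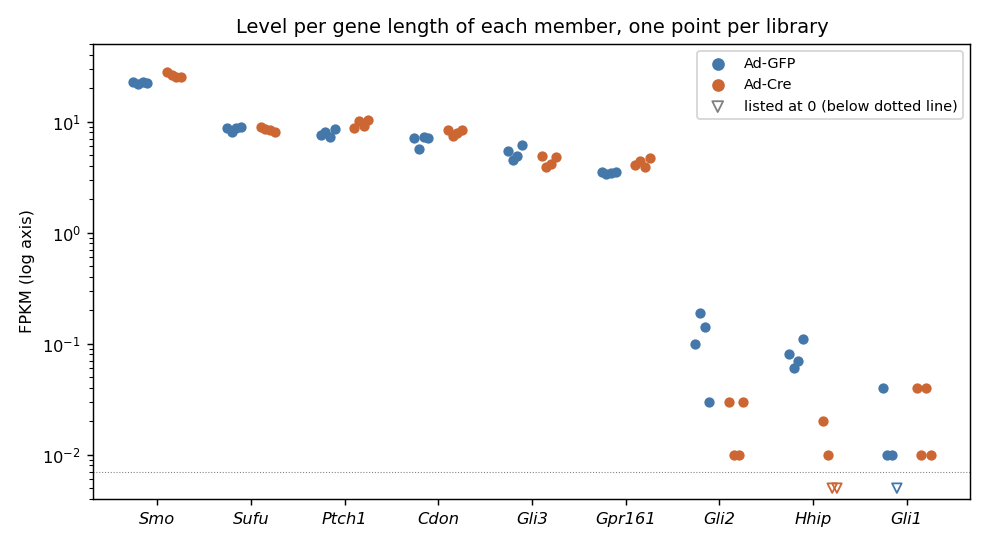
Deposited FPKM (log axis) of the 9 Hedgehog genes, ordered by their mean in Ad-GFP, with 1 point per library and open triangles for libraries listed at 0. Smo stands highest, at a mean of 22.3 in Ad-GFP and 26.1 in Ad-Cre, 5 genes lie between 3.38 and 10.33 FPKM, and Gli2, Hhip and Gli1 lie at or below 0.19 FPKM.

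Ptch1 (ENSMUSG00000021466, minus strand, chr13:63508328-63573598 on GRCm38), the ligand receptor and itself a GLI target, rose in Ad-Cre. Replicates 1 to 4 of Ad-GFP measured 44.0, 42.0, 42.9 and 42.5 CPM, and replicates 1 to 4 of Ad-Cre, in the order kept throughout, measured 50.1, 54.0, 49.6 and 51.7 CPM. Every Ad-Cre library was above every Ad-GFP library. That is 120% of the Ad-GFP level, with a 95% interval of 113.1% to 127.3%. On the log2 scale the change was 0.26 ± 0.04 (SE, n = 4 per group; adjusted p = 1.362e-05 by edgeR).

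Cdon (ENSMUSG00000038119, plus strand, chr9:35421128-35507652), an immunoglobulin-family co-receptor that binds Hedgehog ligands beside Patched, rose by a like amount. The Ad-GFP libraries held 45.5, 41.5, 39.2 and 43.6 CPM and the Ad-Cre libraries 51.2, 53.7, 49.6 and 51.9 CPM, with no overlap between the groups. Its log2 fold change was 0.28 ± 0.05 (SE, n = 4 per group; adjusted p = 1.933e-05 by edgeR), or 122% of Ad-GFP. On the FPKM scale, with limma on log2(FPKM + 1), the same comparison gave 0.22 with an adjusted p = 0.0515 and the call was lost.

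The other co-receptors were less clear. Gas1, a membrane-anchored co-receptor, rose from 5.35 ± 0.78 to 6.69 ± 0.38 CPM (SD, n = 4; adjusted p = 0.0278 by edgeR), a call lost in 6 alternatives, and Boc, the closest relative of Cdon, was at 5.98 ± 0.90 and 6.50 ± 0.56 CPM (adjusted p = 0.416). Lrp2 (megalin), an endocytic receptor of proximal tubule cells that can bind Shh, was at 39.5 ± 3.3 and 36.6 ± 1.8 CPM (adjusted p = 0.112). Cdon and Boc were not tested for a difference between their changes.

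Smo (ENSMUSG00000001761, plus strand, chr6:29735503-29761365), the signal transducer, had the smallest p of the 9 genes. Its values were 84.7, 82.5, 84.6 and 83.5 CPM in Ad-GFP and 105, 99.7, 96.6 and 96.1 CPM in Ad-Cre. The Ad-GFP libraries lay close together and all Ad-Cre libraries stood above them, replicate 1 the farthest. Smo in Ad-Cre thus stood at 118.5% of Ad-GFP, with a 95% interval of 113.0% to 124.2%, or 0.24 ± 0.03 on the log2 scale (SE, n = 4 per group; adjusted p = 1.418e-06 by edgeR).

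Gpr161 (ENSMUSG00000040836, plus strand, chr1:165295789-165326745) encodes a ciliary receptor that raises cyclic AMP and keeps the pathway off through protein kinase A. Levels were 24.1, 23.0, 22.6 and 22.8 CPM in Ad-GFP against 27.9, 28.1, 26.8 and 29.5 CPM in Ad-Cre, again without overlap. Its log2 fold change was 0.28 ± 0.05 (SE, n = 4 per group; adjusted p = 0.0001427 by edgeR). An activator (Smo), a co-receptor (Cdon) and 2 negative regulators (Ptch1 and Gpr161) thus rose to similar percentages of their Ad-GFP level; differences between their changes were not tested.

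**Figure D2:**
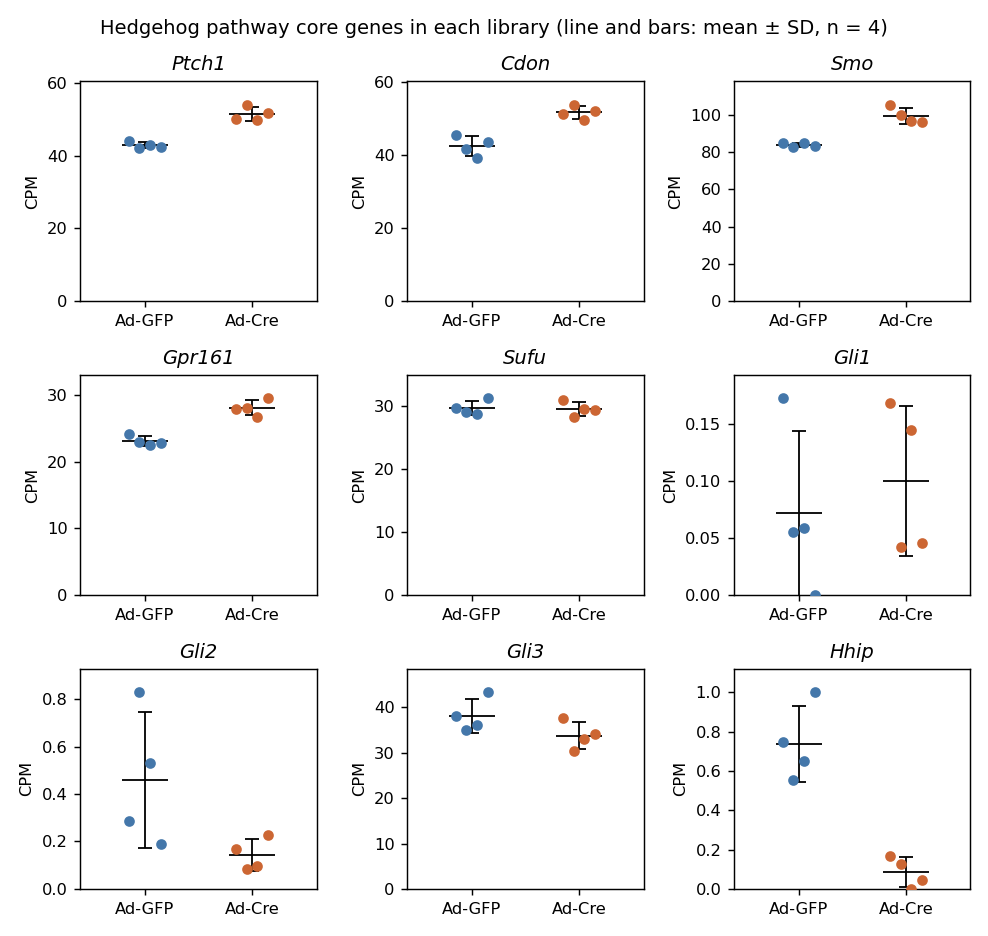
CPM of each of the 9 genes in every library, with a linear axis from 0, 1 point per library and black lines for the mean ± SD of 4 libraries. Ptch1, Cdon, Smo and Gpr161 were higher in every Ad-Cre library, Hhip was lower in every one, and the groups overlapped for Sufu, Gli1, Gli2 and Gli3.

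Sufu (ENSMUSG00000025231, plus strand, chr19:46396896-46488804), the cytoplasmic inhibitor that tethers GLI proteins, was the member with the smallest fitted difference. Ad-GFP libraries had 29.8, 29.1, 28.8 and 31.3 CPM, and Ad-Cre libraries 30.9, 28.3, 29.7 and 29.4 CPM. The groups lay on top of each other, at 99.4% of Ad-GFP with a 95% interval of 92.5% to 106.8% (adjusted p = 0.906 by edgeR). A change of the size seen for Smo lies outside that interval.

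Gli3 (ENSMUSG00000021318, plus strand, chr13:15463235-15730026) supplied nearly all GLI transcripts and was lower in Ad-Cre, with groups that overlapped. Levels were 38.1, 34.95, 36.1 and 43.3 CPM in Ad-GFP against 37.7, 30.4, 33.0 and 34.1 CPM in Ad-Cre. Ad-GFP replicate 4 was the highest of the 8 and Ad-Cre replicate 2 the lowest. The log2 fold change was -0.18 ± 0.06 (SE, n = 4 per group), 88.4% of Ad-GFP, with an adjusted p = 0.0264 by edgeR. It no longer passed when 1 of these libraries was left out: Ad-GFP replicate 4 (-0.11, adjusted p = 0.158), Ad-Cre replicate 2 (-0.13, adjusted p = 0.107), Ad-Cre replicate 3 (-0.17, adjusted p = 0.0641) or Ad-GFP replicate 1 (-0.18, adjusted p = 0.0535), and with DESeq2 (adjusted p = 0.0546). The authors' deposited table gives Gli3 an FDR of 0.0658.

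Gli2 (ENSMUSG00000048402, minus strand, chr1:118834132-119053619) was counted in 5, 15, 9 and 3 reads of the Ad-GFP libraries and in 3, 2, 2 and 5 reads of the Ad-Cre libraries. That is 0.287, 0.830, 0.532 and 0.188 CPM against 0.168, 0.0841, 0.0961 and 0.227 CPM, too low to enter the test across genes. Ad-GFP replicates 2 and 3 were the highest, and the groups overlapped. The mean of Ad-Cre was 31.3% of that of Ad-GFP, and the exact permutation test, two-sided, gave p = 0.0571, where 4 against 4 libraries can reach 0.0286. With no filter on low counts, edgeR gave Gli2 an adjusted p = 0.0188, and the authors' deposited table has it at an FDR of 0.0657.

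Gli1 (ENSMUSG00000025407, minus strand, chr10:127329882-127341974) was close to absent. Its reads numbered 3, 1, 1 and 0 in Ad-GFP and 3, 1, 3 and 1 in Ad-Cre, 13 reads over all 8 libraries. Every library was at or under the 3 reads that a count of 0 allows (0.126 to 0.188 CPM), so no fold change is given (exact permutation test, two-sided, p = 0.657). A difference in Gli1 was not detectable at this depth.

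Hhip (ENSMUSG00000064325, minus strand, chr8:79965851-80058006) encodes a membrane protein that binds and sequesters Hedgehog ligands, and like Ptch1 it is a feedback target of GLI factors. Its reads numbered 13, 10, 11 and 16 in Ad-GFP (0.745, 0.553, 0.650 and 1.0 CPM) and 3, 3, 0 and 1 in Ad-Cre (0.168, 0.126, 0 and 0.0453 CPM). No Ad-Cre library reached any Ad-GFP library, in reads or in CPM. The pooled level, 7 reads against 50, was 11.3% of Ad-GFP with an exact counting interval of 4.34% to 25.1%, which covers counting error only. The fitted log2 fold change was -3.05 ± 0.51 (SE, n = 4 per group; adjusted p = 3.369e-05 by edgeR), and its size depends on a handful of reads. Hhip was tested at all only because of its Ad-GFP reads, so this p and the separation of the groups describe the reads and add no support. Endothelial markers, summing to 158 to 164 CPM in Ad-GFP and 79.6 to 90.9 CPM in Ad-Cre, fell in the same libraries. The sums of fibroblast, mural cell, macrophage and leukocyte, epithelial and proliferation markers were also lower, while that of proximal tubule markers was higher. Whether Hhip reads came from any of these cell types was not tested.

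Ptch1 and Hhip are both feedback genes. Ptch1 rose, while the few reads of Hhip were fewer in Ad-Cre, which for the reason given above is no support for opposite changes. The bases before the start sites of both genes are shown as background. They come from RefSeq promoter windows on GRCm38.p6, which hold 250 bases before and 50 bases after a start site. Only the 250 upstream bases are printed, 5′ to 3′ on the gene's strand, with the core of the GLI binding motif, CCACCC, searched on both strands, in capitals where it occurs. The Hhip window (chr8:80058009-80058258, minus strand) belongs to a start site 2 bases before the gene's GENCODE M21 start. The Ptch1 window (chr13:63565736-63565985, minus strand) belongs to a RefSeq start that lies 7863 bases inside the gene as M21 draws it, and it overlaps no annotated exon.
Ptch1: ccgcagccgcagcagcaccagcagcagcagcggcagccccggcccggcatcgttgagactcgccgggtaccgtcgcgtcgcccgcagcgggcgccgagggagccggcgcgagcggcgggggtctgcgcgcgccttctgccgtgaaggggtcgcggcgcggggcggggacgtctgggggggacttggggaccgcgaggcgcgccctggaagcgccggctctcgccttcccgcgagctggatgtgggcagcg
Hhip: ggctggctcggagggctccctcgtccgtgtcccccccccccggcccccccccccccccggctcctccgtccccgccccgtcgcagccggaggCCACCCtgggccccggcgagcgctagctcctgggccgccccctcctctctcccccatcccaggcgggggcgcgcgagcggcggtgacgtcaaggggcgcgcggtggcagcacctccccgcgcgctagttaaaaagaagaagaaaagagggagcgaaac

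The 9-base GLI consensus GACCACCCA, which contains that core, was in 0 of the 9 windows found for 8 of the genes, and in 0.253% of all 32851 promoter windows of the same 300-base length. No window was matched for Gli1. The core occurred in 1 place in the windows of Smo, Gli3 and Hhip, in 2 places in that of Gli2, and in no place in those of Ptch1, Sufu, Cdon and Gpr161; 31.5% of all windows hold it. Of the 4 genes that rose, the Ptch1 window has 47 CpG sites and the Smo window 17, whereas those of Cdon and Gpr161 have 1 to 5, against a median of 7 over all windows. The genes that rose thus differed in CpG content in these windows, of which those for Cdon and for the second Gpr161 start also lie inside the genes as M21 draws them.

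**Figure D3:**
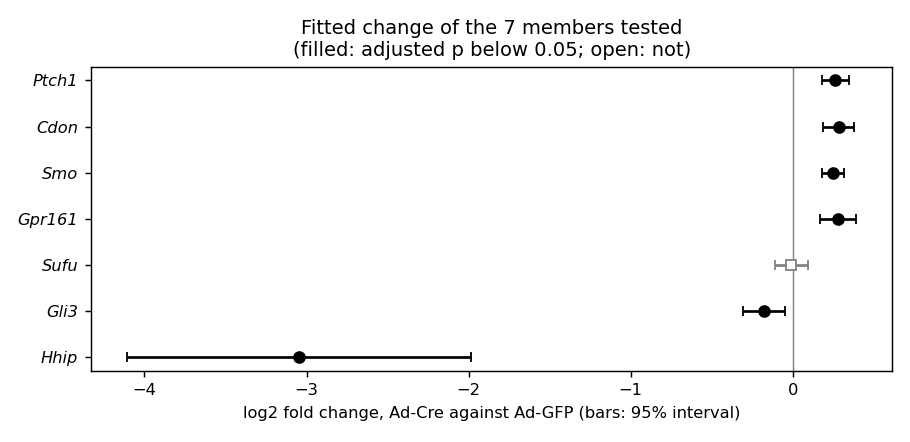
Fitted log2 fold change (Ad-Cre against Ad-GFP) of the 7 genes with enough counts, with 95% intervals from edgeR's fit, filled symbols for an adjusted p below 0.05 and an open symbol otherwise. Ptch1, Cdon, Smo and Gpr161 lie between 0.24 and 0.28, Sufu at -0.01, Gli3 at -0.18 and Hhip at -3.05.

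The rest of the pathway was read from 5 lists holding 73 further genes by role. Of 62 tested, 19 rose and 9 fell, or 45.2% called, close to the 40.3% of all genes tested. Their median log2 fold change was 0.06, against 0.00408 for all genes tested. The split was 16 and 12 with upper-quartile scaling and 9 and 7 on the log2(FPKM + 1) scale. All 9 core genes also carry the KEGG Hedgehog signaling term in the deposited table. Of 42 tested genes with that term, a list added after the data were seen, 13 rose and 8 fell. That is 50% called, against 40.3% of all genes tested, and the count includes the called core genes, Hhip among them.

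Ligand transcripts were scarce. Shh had 1 read over all 8 libraries, Ihh 16 and Dhh 28. Hhat, which attaches palmitate to the ligands, was at 3.37 ± 0.70 and 4.23 ± 0.87 CPM (SD, n = 4; adjusted p = 0.130 by edgeR), and Disp1, which releases them from the cell, at 18.7 ± 1.1 and 18.9 ± 0.7 CPM (adjusted p = 0.788). Of the secreted Scube proteins that carry released ligand, Scube3 was abundant and fell from 79.1 ± 2.7 to 63.0 ± 2.2 CPM (adjusted p = 5.356e-08), whereas Scube1 and Scube2 had at most 7 reads in a library. Scube3 was the only one of the 3 tested genes of this list to be called.

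Of the 31 intracellular regulators, all tested, 11 rose, 4 fell and 16 did not pass. The called share was 48.4%, against 40.3% of all genes tested, with a median log2 fold change of 0.05. Genes of the complex that anchors active Smoothened at the base of the cilium were among the rises. Evc rose to 127% and Evc2 to 126% of Ad-GFP (23.8 ± 0.9 to 30.3 ± 1.6 and 33.1 ± 2.3 to 41.9 ± 1.3 CPM; adjusted p = 1.270e-05 and 5.898e-06), and Iqce to 111%. The remaining subunit gene, Efcab7, was at 10.1 ± 0.7 and 11.2 ± 1.3 CPM (adjusted p = 0.210). Evc and Evc2 are neighbours on chromosome 5 and lie in opposite orientations.

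Of the regulators that lower Smoothened at the cell surface, Mosmo rose to 111% of Ad-GFP, while the ubiquitin ligase gene Mgrn1 was at 107 ± 5 and 111 ± 6 CPM (SD, n = 4; adjusted p = 0.269 by edgeR). Protein kinase A, which primes GLI proteins for processing, showed rises in the catalytic subunit gene Prkacb (116%) and the regulatory subunit gene Prkar1a (109%), while the other catalytic subunit gene, Prkaca, was at 105% (adjusted p = 0.230). Gsk3a and Csnk1e, encoding kinases that act after it, fell to 92.1% and 93.6%, and their relatives Gsk3b, Csnk1a1 and Csnk1d, at 96.6%, 98.5% and 96.3%, did not pass. The GPCR kinase gene Grk3 fell to 66.9% and Arrb1, encoding β-arrestin 1, to 82.4%, whereas Grk2 (96.5%) and Arrb2 (88.3%) did not pass. Itch (110%), Cul3 (106%), Cul1 (106%) and Ulk3 (118%), which act on GLI proteins or their turnover, also rose. The Cul1, Cul3 and Ulk3 calls were each lost in 6 or 7 of the alternatives, and those of Arrb1, Iqce and Mosmo in 2 or 3, among them both FPKM scales.

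Of 14 genes that route pathway proteins through the cilium, 6 rose, 0 fell and 8 did not pass. The called share was 42.9%, near the 40.3% of all genes tested, with a median log2 fold change of 0.13. Ift122, a subunit of the retrograde transport complex, rose from 37.8 ± 2.2 to 45.8 ± 1.2 CPM (SD, n = 4; adjusted p = 3.099e-05 by edgeR). The ciliary phosphatase gene Inpp5e rose to 120%, Bbs7 to 124%, Rpgrip1l to 113%, Intu to 114% and Ift172 to 111% of Ad-GFP. On both FPKM scales the calls of Bbs7, Rpgrip1l, Intu and Ift172 were lost, and that of Intu in 10 alternatives in all. Tulp3, the adaptor that carries Gpr161 into the cilium, was at 73.9 and 71.5 CPM (adjusted p = 0.335).

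Of 11 tested genes reported downstream of Hedgehog signalling in other tissues, 4 fell, 1 rose and 6 did not pass, and their median change was -0.11 on the log2 scale. The called share was 45.5%, near the 40.3% of all genes tested, and no difference from the other lists was tested. The forkhead genes Foxf1 and Foxc2 fell to 81.6% and 71.8% of Ad-GFP, the Notch ligand gene Jag2 to 60.4% and the cyclin gene Ccnd1 to 92.9%. The Foxc2 call was lost in 5 alternatives. Bcl2, an inhibitor of apoptosis, rose from 64.4 ± 2.8 to 73.7 ± 3.0 CPM (SD, n = 4; adjusted p = 0.0002022 by edgeR). All of these genes have other inputs, and proliferation markers fell in the same libraries (212 to 225 against 144 to 152 CPM).

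**Figure D4:**
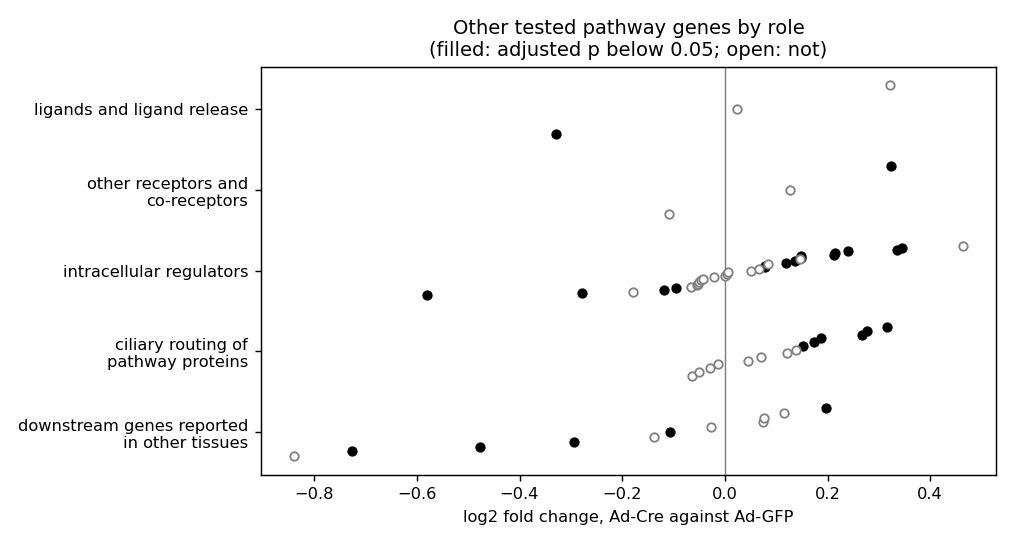
Log2 fold change (Ad-Cre against Ad-GFP) of the other tested pathway genes, 1 point per gene, stacked by role, with filled points for an adjusted p below 0.05. Of the 62 genes, 34 are open points, and called genes lie on both sides of 0 among the intracellular regulators and the downstream genes.

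Exons of several of these genes overlap a gene on the other strand, and the sources used here do not say whether counting used strand. Among the core genes this touches Gli1 (265 bases), Gli3 (188) and Hhip (175), and among the others Dhh (1107), Ccnd1 (1100), Inpp5e (874), Gsk3a (820), Suv39h1 (767), Gas1 (589), Bcl2 (558), Shh (446), Csnk1e (267), Scube3 (198), Cul1 (192), Foxf1 (98), Csnk1d (63) and Mgrn1 (41). For the low genes Gli1, Hhip, Dhh and Shh a few reads of the other gene would alter the counts.

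Across the 8 libraries the genes most like Smo, by root mean square difference of centred log2(CPM + 0.5) values among 12713 genes of at least 1 CPM, were Xrn1 (0.0232), Epb41l5 (0.0261) and Gpatch4 (0.0284). Ptch1 ranked at 251 (0.0541), Gpr161 at 442 and Cdon at 899. The libraries fall into 2 groups, so this ranking follows mainly the size of the group difference.

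The authors' deposited table puts 5 of the 9 genes at an FDR below 0.05, where 18.7% of all its rows lie. They are Smo (1.870e-08), Cdon (4.500e-06), Ptch1 (7.070e-06), Hhip (0.0001209) and Gpr161 (0.0004754). In the authors' deposited table Sufu has an FDR of 0.958 and Gli1 one of 0.890.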

How the data were processed

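Per the file headers, the authors deposited whole-number read counts and FPKM per gene for 8 libraries, group mean FPKM, a log2 fold change equal to the log2 ratio of those means, and p-values and FDR from an unnamed test. GRCm38 and mm10 are the builds in the submitters' processing notes. The aligner, counter, annotation release and use of strand were not given in the sources used here.

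Deposited counts were analysed with edgeR 4.0.16 in R 4.3.3: filterByExpr (13337 of 22322 genes kept), TMM scaling, quasi-likelihood F-test of Ad-Cre against Ad-GFP over all 8 libraries, two-sided, Benjamini-Hochberg adjustment over all genes tested, threshold 0.05. "Rose", "fell" and "called" refer to it. CPM uses TMM-scaled totals. The SE was computed from the fold change and its F statistic (size of the log2 change over the square root of F). Counts below the filter were compared by an exact permutation test (scipy 1.17.1). Replicates differed by more than sampling noise (chi-square per degree of freedom 1.83 to 3.35). The fit was tested on simulated data with known changes, where false calls were more frequent than the nominal rate. Far fewer genes were changed in the simulation than were called in the data, so its share of false calls need not hold for them. Promoter windows are RefSeq's (GRCm38.p6), and gene coordinates GENCODE M21's.

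Always named were the 9 core genes and Suv39h1; called genes, ligands and receptors of the fixed pathway lists could be named, the 2 most abundant genes of each marker list, and the 3 genes most like the core gene of smallest p. Named outside this rule, after their values were seen, were Dpt, Lum, Fap, Slc34a1, Slc5a2, Efcab7, Mgrn1, Tulp3, Prkaca, Gsk3b, Csnk1a1, Csnk1d, Grk2 and Arrb2. Members and lists were chosen with earlier results of these data known. Some list genes enter the counts and are not reported here by name.

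Alternatives were RLE and upper-quartile scaling, no filter, at least 5 CPM, DESeq2 1.42.0, limma-voom (limma 3.58.1), limma on log2(FPKM + 1) and log2(FPKM + 0.1) with a mean FPKM of at least 1, a replicate block, thinning to 15879244 counts, and leaving out each library.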

Additional observations from a re-analysis of the deposited data

Results flagged for a closer look

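Of 84 groups of 4 libraries examined for a value far from the others, 2 were flagged, and chance flags about 1 in 20 such groups. Bbs7 was at 10.82 CPM in Ad-GFP replicate 4, against 12.29 to 12.44 CPM in the other Ad-GFP libraries. Gas1 was at 7.25 CPM in Ad-Cre replicate 4, against 6.434 to 6.547 CPM in the other Ad-Cre libraries. None of the 9 core genes had such a library.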

How the results depend on the processing

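Smo, Ptch1 and Gpr161 kept their direction and their call in all 18 alternatives, with log2 fold changes of 0.22 to 0.26, 0.24 to 0.28 and 0.23 to 0.30. Hhip gave -3.48 to -2.66 in 14 alternatives and no value with at least 5 CPM, on the FPKM scales or after thinning; since its Ad-GFP reads alone carry it past the filter, its calls say nothing about stability. Limma on log2(FPKM + 1) and on log2(FPKM + 0.1) lost the calls of Cdon (0.22, adjusted p = 0.0515, and 0.24, adjusted p = 0.0523) and Gli3 (-0.21, adjusted p = 0.120, and -0.24, adjusted p = 0.121). They called 3 of 6 tested core genes each and 16 of 57 other pathway genes each. In all they called 3530 and 3520 of 11679 genes, over fewer genes than the 13337 tested by edgeR. The cause of the lost calls was not tested. Gli3 also lost its call with DESeq2 (-0.17, adjusted p = 0.0546), and leaving out 1 library gave -0.23 to -0.11. Sufu, never called, ran from -0.030 to 0.015 without 1 library and so changed sign. Gli2 passed only with no filter (-1.66, adjusted p = 0.0188). With 1 library left out, its exact permutation test can reach no p below 0.0571, so those alternatives could not pass and say nothing about stability. Of the other 33 genes named from the fit, Disp1 changed sign on log2(FPKM + 1) (-0.10), log2(FPKM + 0.1) (-0.12) and without Ad-GFP replicate 2 (-0.00239, the lowest of -0.00239 to 0.063 without 1 library), never called. Of their 585 comparisons, 56 lost a call, in 12 genes.

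Same-numbered libraries of the groups deviated together weakly or not at all (correlations -0.0115 to 0.104), and the labels state no pairing. For replicates 1 and 2 (0.0831 and 0.104) the same-numbered library was the best match in the other group. For replicates 3 and 4 it was not. With the replicate number as a block, 5390 genes and the same 6 of 7 tested core genes were called, Gli3 at an adjusted p = 0.00935. Depth limits Gli1, Gli2, Hhip and the ligands, at 16 reads or fewer per library.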
